A study of Mus musculus with 6 samples.

Results

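The genes described here encode the 4 Notch receptors of the mouse (Notch1, Notch2, Notch3 and Notch4), the ligands Jag1 and Jag2, the protein O-fucosyltransferase Pofut1 and the Fringe enzymes Lfng, Mfng and Rfng. They were taken from the table of array values as the genes whose symbol stood alone on a probe set, and all 10 were measured, among 23152 genes in all. Together they had 201 of the 269751 probe sets, with 40 for Notch1, 27 for Notch2, 25 for Notch3, 23 for Notch4, 22 for Jag1, 19 for Jag2, 13 for Pofut1, 10 for Lfng, and 11 each for Mfng and Rfng. The members were selected in the table by symbol, not by a threshold on measured values.

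Germ cells were prepared by enzymatic digestion of testes of FVB mice at 23 dpp (days post-partum). Mgat1 cKO mice carried floxed alleles of Mgat1 and the Stra8-iCre transgene (Mgat1[F/F]:Stra8-iCre), and control mice carried the floxed alleles alone (Mgat1[F/F]). The Stra8 promoter drives Cre in spermatogonia, so that Sertoli, Leydig and other somatic cells left in a preparation are not targeted. Mgat1 encodes the Golgi enzyme that starts the synthesis of hybrid and complex N-glycans. RNA of 6 mice was pooled for each genotype, and 3 aliquots of each pool were hybridized, 1 to an array. The p-values below cover the spread between aliquots and not that between mice.

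Notch receptors are cleaved at the cell surface when a Delta or Jagged ligand on a neighbouring cell binds them, and the freed intracellular domain joins RBPJ and Mastermind proteins in the nucleus to switch on genes of the Hes and Hey families. Pofut1 adds O-fucose to the epidermal growth factor-like repeats of the receptors in the endoplasmic reticulum, and the Fringe enzymes extend that fucose with N-acetylglucosamine in the Golgi, which alters the response to ligands. Notch3 is best known from vascular smooth muscle cells and pericytes, and Notch4 from endothelial cells. RNA levels say nothing of whether a receptor is cleaved or carries these sugars.

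RBPJ, the DNA-binding partner of the receptors, recognises sites with the core TGGGAA. Promoters of 9 of the 10 genes were found by symbol in RefSeq (GRCm38.p6), all but that of Mfng, and the 250 bases before each start were searched for this core on both strands. The start was that of the promoter entry, and for Jag2, Rfng, Notch3 and Notch4 these bases overlapped the span of the gene. The core was present in 1 of the 9 promoters, that of Lfng, against 21.6% of the 32851 promoters in the table. Lfng had 2 matches, 1 of TGGGAA and 1 of its reverse complement TTCCCA, starting 108 and 135 bases before the start. The promoter of Lfng is shown because it holds the core and that of Notch3 because Notch3 was the only one of the 10 genes to pass the test, both 5′ to 3′ on the strand of the gene, with the matches in capitals. Lfng lies on the plus strand (chr5:140607091-140607340) and Notch3 on the minus strand (chr17:32166891-32167140).
Lfng: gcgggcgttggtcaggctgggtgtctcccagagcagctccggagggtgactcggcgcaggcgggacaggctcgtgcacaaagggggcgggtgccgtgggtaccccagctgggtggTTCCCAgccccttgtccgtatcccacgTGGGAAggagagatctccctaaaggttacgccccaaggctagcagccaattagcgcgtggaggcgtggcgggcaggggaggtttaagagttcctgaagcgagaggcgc
Notch3: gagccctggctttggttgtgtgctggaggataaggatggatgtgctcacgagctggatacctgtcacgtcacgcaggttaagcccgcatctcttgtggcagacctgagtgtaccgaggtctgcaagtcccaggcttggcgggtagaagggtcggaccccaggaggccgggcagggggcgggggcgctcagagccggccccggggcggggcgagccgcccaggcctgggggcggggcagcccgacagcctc
A match is a description of the letters, and nothing about RBPJ binding follows from the absence of one in this window.

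Values are on the log2 scale, so that a difference of 1 is 2-fold, and the level of a gene is the mean over its probe sets. Differences are Mgat1 cKO minus control. The threshold for a change was an adjusted p of 0.05 (limma, Benjamini-Hochberg over all genes). By this test 6.07% of all genes were higher and 2.35% lower in Mgat1 cKO preparations. The median difference of all genes was -0.05, and 64.5% of all genes had a negative difference, so a negative sign alone was common. Arrays had similar medians (6.85 to 6.87). Their correlations over gene means were 0.994 to 0.995 within Mgat1 cKO, 0.996 within control and 0.979 to 0.98 between genotypes.

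Of the 10 genes, Notch3 was lower in Mgat1 cKO preparations and no other gene passed the test in either direction. At an unadjusted p under 0.05 there were 2, Notch3 and Notch4, both lower, beside 14.5% of all genes that were lower and 9.55% that were higher by that measure. Differences of 9 of the 10 were negative, with a median of -0.10, beside -0.05 for all genes. In 4 of the 10 (Notch2, Notch3, Notch4 and Mfng) every Mgat1 cKO array was below every control array, and in none was every one above, beside 20.1% and 11.2% of all genes. The 95% intervals of the 9 genes that did not pass the test lay between -0.35 and 0.18, all inside a change of 2-fold.

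**Figure D1:**
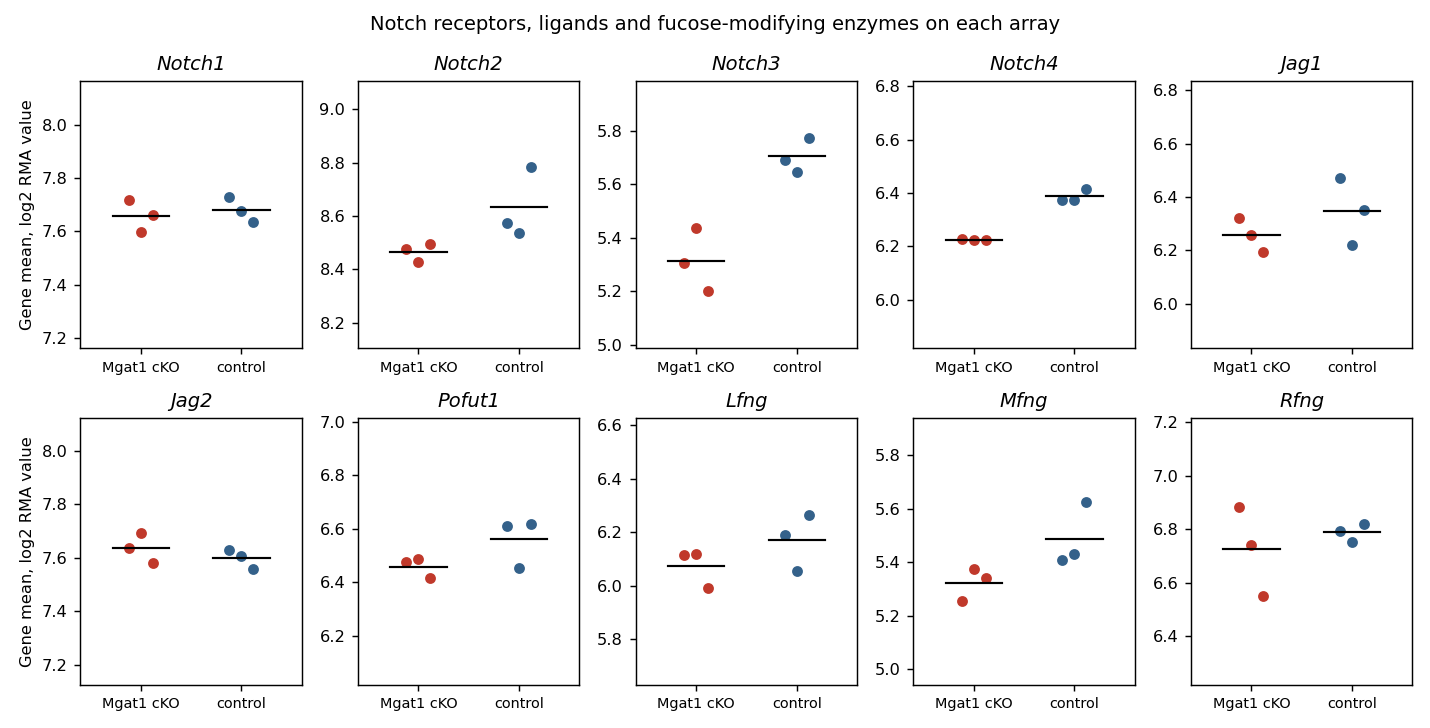
Mean log2 RMA value of each gene (y axis, a span of 1 in every panel) on the 3 Mgat1 cKO arrays (red, left) and the 3 control arrays (blue, right), with bars at the group means. The groups are apart for Notch2, Notch3, Notch4 and Mfng, with the widest gap for Notch3, and overlap for the other 6 genes.

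Among the receptors, Notch3 had log2 values of 5.31, 5.44 and 5.20 on the Mgat1 cKO arrays, against 5.69, 5.65 and 5.77 on the control arrays. All Mgat1 cKO values were below all control values. The means were 5.31 ± 0.12 in Mgat1 cKO and 5.70 ± 0.065 in control (SD, n = 3 each), a difference of -0.39 ± 0.079 (SE, 95% interval -0.57 to -0.21) or 0.763-fold, with an adjusted p = 0.0198 in limma. The call was lost by an analysis of variance (adjusted p = 0.0817). This was the kind of test the study used, run here on the same gene means without its 2-fold cut. The call was also lost without the probe sets that were dim on these arrays (adjusted p = 0.0846). It was lost too without Mgat1 cKO array 1 (0.0631), Mgat1 cKO array 3 (0.0591), control array 1 (0.0662) or control array 3 (0.0773). The direction was kept in each of these fits, with differences from -0.45 to -0.33 when single arrays were left out. Notch3 lies on chromosome 17 (GRCm38.p6, 32120820 to 32166896).

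Notch4, the other receptor gene on chromosome 17, had values of 6.23, 6.22 and 6.22 in Mgat1 cKO, against 6.37, 6.38 and 6.42 in control. The 3 Mgat1 cKO arrays were nearly equal and all lay below the control arrays. The difference of -0.16 ± 0.056 (SE) did not pass the test (limma, adjusted p = 0.13). The analysis of variance run here, without the 2-fold cut of the study, called it (adjusted p = 0.011). It is a mean over probe sets whose differences had opposite signs, as given below, and with the median of probe sets in place of the mean it was 0.0099.

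Notch2, which shares much of its structure with Notch1, had values of 8.48, 8.43 and 8.49 in Mgat1 cKO, against 8.57, 8.54 and 8.78 in control. The highest Mgat1 cKO array was 8.49 and the lowest control array 8.54, so the groups were apart by less than the range of the control arrays. Its difference was -0.17 ± 0.079 (SE, limma adjusted p = 0.249). Notch1, a receptor with broad roles in stem and progenitor cells, had values of 7.72, 7.60 and 7.66 in Mgat1 cKO, against 7.73, 7.68 and 7.64 in control. These overlapped, with a difference of -0.021 and a 95% interval of -0.17 to 0.13 (limma adjusted p = 0.87).

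The ligands Jag1 and Jag2 span the membrane of the sending cell. Jag1 had values of 6.32, 6.26 and 6.20 in Mgat1 cKO, against 6.47, 6.22 and 6.35 in control. Jag2 had values of 7.64, 7.69 and 7.58 in Mgat1 cKO, against 7.63, 7.61 and 7.56 in control. Both groups of arrays overlapped for each ligand. The difference was -0.091 ± 0.08 (SE) for Jag1, with an adjusted p = 0.524, and 0.038 ± 0.062 (SE) for Jag2, with an adjusted p = 0.747 (limma). Jag2 was the 1 gene of the 10 whose difference was above 0.

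Pofut1, whose product adds the O-fucose, had values of 6.47, 6.49 and 6.41 in Mgat1 cKO, against 6.61, 6.46 and 6.62 in control. The second control array lay among the Mgat1 cKO arrays and the other two above them. The difference was -0.10 ± 0.069 (SE, 95% interval -0.26 to 0.06, limma adjusted p = 0.405).

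The Fringe enzymes act on the product of Pofut1. Lfng had values of 6.11, 6.12 and 5.99 in Mgat1 cKO, against 6.19, 6.06 and 6.26 in control, which overlapped. Mfng had values of 5.25, 5.37 and 5.34 in Mgat1 cKO, against 5.41, 5.43 and 5.63 in control. All Mgat1 cKO arrays of Mfng were below the control arrays, the nearest by a narrow margin. Rfng had values of 6.88, 6.74 and 6.55 in Mgat1 cKO, against 6.79, 6.75 and 6.82 in control. The Rfng arrays of Mgat1 cKO lay on both sides of the control arrays, and their SD of 0.17 was the widest of the 10 genes in that group. The differences were -0.10 for Lfng, -0.17 for Mfng and -0.064 for Rfng, with adjusted p-values of 0.485, 0.247 and 0.702 in limma.

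**Figure D2:**
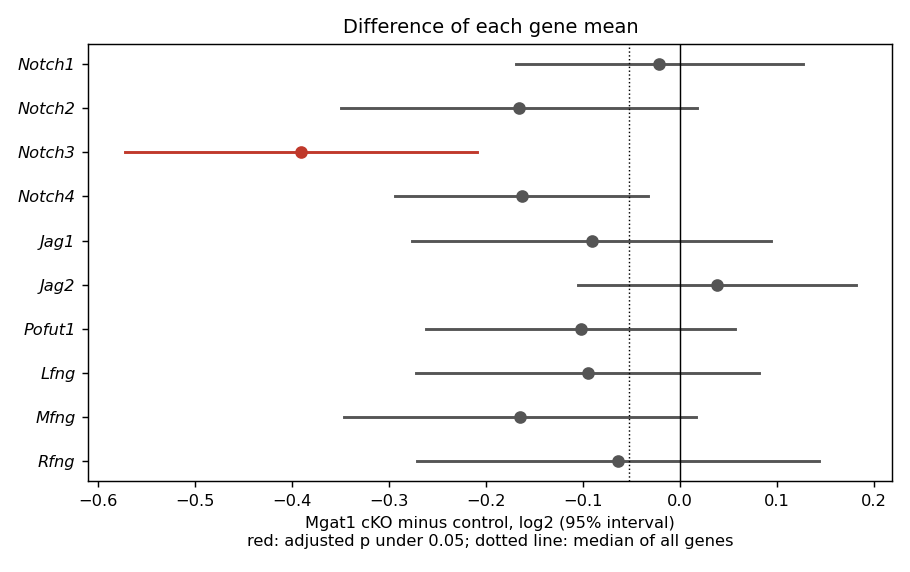
Difference of the gene means, Mgat1 cKO minus control on the log2 scale (x axis), with 95% intervals from limma (lines) for each gene (y axis). Notch3 at -0.39 is the 1 gene drawn in red for an adjusted p under 0.05, and the dotted line marks the median of all genes at -0.05.

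No detection call was used. As a measure of background, the 1782 probe sets of olfactory receptor genes, most of which are silent outside the nose, had a median of 3.98 and a 95th percentile of 6.21. The means of Notch3, Lfng and Mfng were below 6.21 in both genotypes, and single probe sets of every gene except Mfng reached above 7. That percentile is of single probe sets, so it is not a matched cut for a gene mean. Of the 201 probe sets, 27 had a mean under 5.05, the 25th percentile of all probe sets, among them 7 of the 25 of Notch3 and 4 of the 11 of Mfng.

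Single probe sets read parts of a transcript, and each was tested over all 269751. Of all probe sets 1.87% passed this threshold as higher and 0.18% as lower. Of the 201 of the 10 genes, 1 was higher, in Notch4, and 1 was lower, in Notch3. In sign 125 of the 201 (62.2%) were lower, beside 57.9% of all probe sets. All Mgat1 cKO arrays were below all control arrays in 22 and above them in 9, beside 10.8% and 8.66% of all probe sets. Where in the transcripts the probe sets lie is not given in the sources used here.

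The lower one, probe set 17343302 of Notch3, had values of 4.44, 4.57 and 4.73 in Mgat1 cKO, against 6.03, 5.71 and 6.04 in control. The groups were apart by more than either group's range. The means were 4.58 ± 0.15 in Mgat1 cKO and 5.93 ± 0.19 in control (SD, n = 3 each), a difference of -1.35 ± 0.147 (SE, limma adjusted p = 0.00783). Both means of this probe set were below 6.21, the 95th percentile of olfactory receptor probe sets. Notch3 did not rest on this probe set alone, since its gene difference without it was -0.35 (adjusted p = 0.0346). Of its 25 probe sets 16 were lower in sign and 9 higher, from -1.51 to 0.56 with a median of -0.41. The lowest, probe set 17343311, had values of 5.50, 5.30 and 3.51 in Mgat1 cKO, against 6.53, 6.15 and 6.16 in control, and its adjusted p was 0.331. The third Mgat1 cKO array was far below the other two there. At the other end, probe set 17343306 had values of 6.06, 6.84 and 6.82 in Mgat1 cKO, against 6.03, 6.03 and 5.98 in control, a difference of 0.56 (adjusted p = 0.411).

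The higher one, probe set 17336593 of Notch4, had values of 7.13, 7.63 and 7.28 in Mgat1 cKO, against 6.07, 5.76 and 5.86 in control. It was higher on every Mgat1 cKO array, with means of 7.35 ± 0.26 in Mgat1 cKO and 5.89 ± 0.16 in control (SD, n = 3 each). The difference was 1.45 ± 0.17 (SE, 95% interval 1.04 to 1.87, limma adjusted p = 0.0107), or more than 2-fold. The call was lost by the analysis of variance run here (adjusted p = 0.0667). It was also lost without Mgat1 cKO array 3 (0.0505), control array 2 (0.0569) or control array 3 (0.0585). The difference was 1.38 or more in those fits. Of the 23 probe sets of Notch4, 14 were lower in sign and 9 higher, with a median of -0.11. Probe set 17336573 stood at the other end, with values of 4.10, 4.63 and 4.15 in Mgat1 cKO, against 5.92, 5.59 and 5.07 in control. All Mgat1 cKO arrays were lower there, by -1.24 ± 0.26 (SE), which did not pass the test (adjusted p = 0.104).

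**Figure D3:**
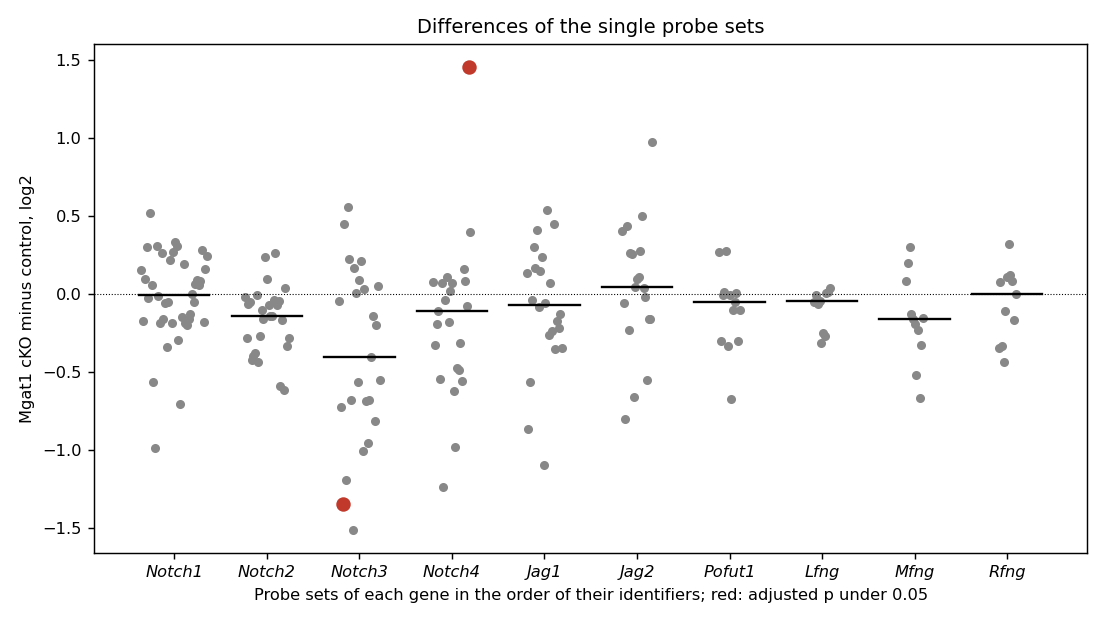
Difference of each of the 201 probe sets, Mgat1 cKO minus control on the log2 scale (y axis), by gene (x axis), with bars at the median of each gene. The 2 probe sets in red passed the test, at -1.35 in Notch3 and at 1.45 in Notch4.

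Whether a probe set moved unlike the rest of its gene was tested with diffSplice in limma, which called 1.91% of 231434 probe sets. It called 2 of the 10 genes' probe sets, 17336593 of Notch4 and 17383067 of Notch1. The Notch4 probe set was 1.69 above the rest of its gene (adjusted p = 0.0176). The Notch1 probe set had values of 4.59, 4.21 and 4.42 in Mgat1 cKO, against 5.81, 4.67 and 5.71 in control, and was -0.99 from the rest of its gene (adjusted p = 0.0392). The second control array of the Notch1 probe set lay close to the Mgat1 cKO arrays. DiffSplice shares 1 spread among the probe sets of a gene. A second limma test took the spread of each probe set's own departure from the rest of its gene, moderated across probe sets. It called 0.308% of probe sets. The Notch4 probe set again passed (1.69 ± 0.186, SE, adjusted p = 0.0368) and the Notch1 probe set did not (adjusted p = 0.448). Over whole genes, 7.13% of 20833 were called by diffSplice and none of the 10, with the lowest adjusted p of 0.107 in Jag2.

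**Figure D4:**
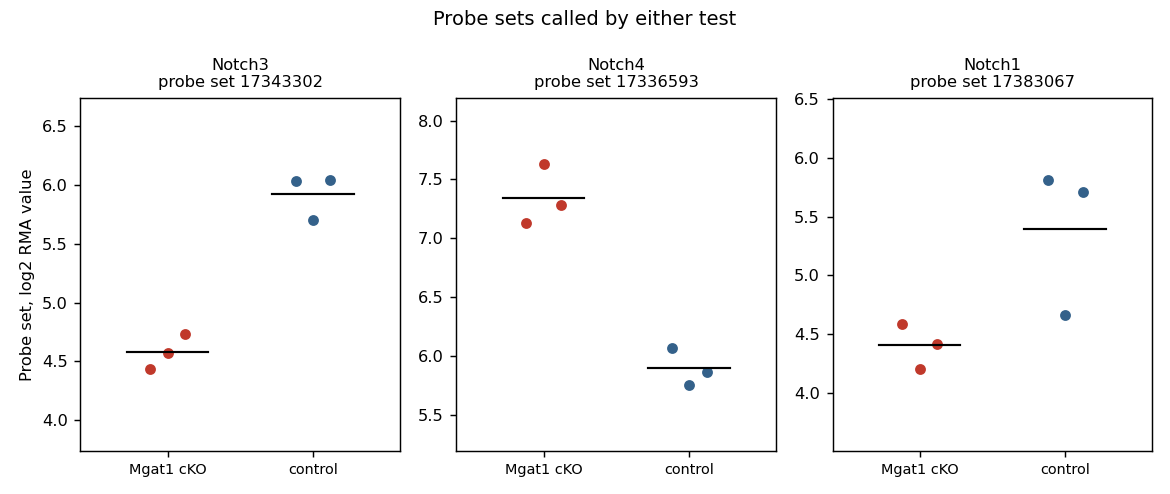
Log2 RMA values (y axis, a span of 3 in every panel) of the 3 probe sets called by either test, on Mgat1 cKO arrays (red, left) and control arrays (blue, right), with bars at the group means. The Notch3 probe set is lower and the Notch4 probe set higher on all Mgat1 cKO arrays, and the second control array of the Notch1 probe set is near the Mgat1 cKO arrays.

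The probe sets of the other genes spread around their gene means. Of all probe sets 57.9% were lower in sign. All Mgat1 cKO arrays were below all control arrays in 10.8% of them and above in 8.66%. In Notch2 23 of 27 were lower in sign, from -0.61 to 0.26, and 4 had all Mgat1 cKO arrays below the controls. In Notch1 21 of 40 were lower and 19 higher, with 4 non-overlapping in each direction, close to the shares over all probe sets. Jag2, which was close to 0 as a gene, ranged from -0.80 to 0.97, with 3 probe sets non-overlapping below and 2 above. Its probe set 17284263 had values of 6.47, 6.86 and 6.51 in Mgat1 cKO, against 7.09, 7.46 and 7.29 in control, a difference of -0.66 (adjusted p = 0.161). Jag1 ranged from -1.09 to 0.53. In Pofut1 9 of 13 were lower, in Lfng 7 of 10, in Mfng 8 of 11 and in Rfng 6 of 11. Lfng had the narrowest range, from -0.31 to 0.034, and no probe set whose groups did not overlap.

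Other genes of the pathway were taken from 7 lists with 67 genes, of which 65 were measured. None passed the test as higher and 1, Rbpj, as lower, beside 6.07% and 2.35% of all genes, and at an unadjusted p under 0.05 there were 5 higher and 8 lower, beside 9.55% and 14.5% of all genes. Their median difference was -0.07 and 75.4% were negative, beside -0.05 and 64.5% of all genes.

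In the nuclear complex (13 genes, 1 lower) Rbpj had values of 5.86, 6.05 and 6.01 in Mgat1 cKO, against 6.36, 6.40 and 6.20 in control. All Mgat1 cKO arrays were below all control arrays, in the gene and in each of its 4 probe sets. The difference was -0.34 ± 0.081 (SE, 95% interval -0.53 to -0.16, limma adjusted p = 0.0397). The 2 brighter probe sets differed by -0.18 and -0.081 and the 2 dimmer ones by -0.50 and -0.61, and without those under 5.05 the difference of the gene was -0.13 (adjusted p = 0.234). The call was also lost by the analysis of variance run here (adjusted p = 0.118) and with the median of probe sets (0.118). It was lost too with quantile normalization repeated (0.0509), and without any single array other than control array 3 (0.0576 to 0.133). Rbpj has pseudogenes in the mouse, and whether its probe sets read them is not given in the sources used here. Rbpjl, a tissue-restricted paralogue of Rbpj, had values of 5.49, 5.58 and 5.53 in Mgat1 cKO, against 5.94, 5.87 and 5.67 in control, with a difference of -0.29 that did not pass the test (adjusted p = 0.0711).

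None of the 10 genes listed as targets passed the test. At an unadjusted p under 0.05 there were 0, beside 9.55% of all genes that were higher and 14.5% that were lower. The mean level of the list was 5.88 to 5.90 on Mgat1 cKO arrays and 5.92 to 5.97 on control arrays. All but Hey1, Heyl and Nrarp had means below 6.21, the 95th percentile of single olfactory receptor probe sets, in both genotypes. The largest differences were 0.15 for Hes3 (adjusted p = 0.294) and -0.13 for Hes6 (adjusted p = 0.331). Hes1, the target shared by many tissues, had values of 6.07, 5.98 and 6.00 in Mgat1 cKO, against 6.09, 6.09 and 6.20 in control, a difference of -0.11 with a 95% interval of -0.26 to 0.03. The 10 genes are the listed Hes and Hey genes and Nrarp. Whether each is a target of the receptors, in these cells or elsewhere, was not tested. Of them 9 were negative in sign, with a median of -0.08, beside 64.5% and -0.05 for all genes.

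None of the 9 receptor protease genes passed the test, led by Psen2, a catalytic subunit of gamma-secretase (-0.27, adjusted p = 0.0878), and by Adam17, a protease of the cell surface (-0.17, adjusted p = 0.157). Among the 13 genes of ligand and receptor traffic, Neurl1a, a ubiquitin ligase (0.25, adjusted p = 0.0878), and Numb, an inhibitor of Notch (-0.18, adjusted p = 0.283), led, and none passed. The other 6 ligands were led by Dlk1 (0.18, adjusted p = 0.126) and Dner (-0.14, adjusted p = 0.417). Of the 8 other glycosyltransferase genes listed, Poglut2 (-0.21, adjusted p = 0.123) and Gxylt1 (-0.18, adjusted p = 0.303) were farthest from 0. Of the 6 genes that supply GDP-fucose, the donor for Pofut1, these were Slc35c1 (-0.17, adjusted p = 0.306) and Gmds (-0.085, adjusted p = 0.615). None of these last 20 genes passed the test (limma).

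**Figure D5:**
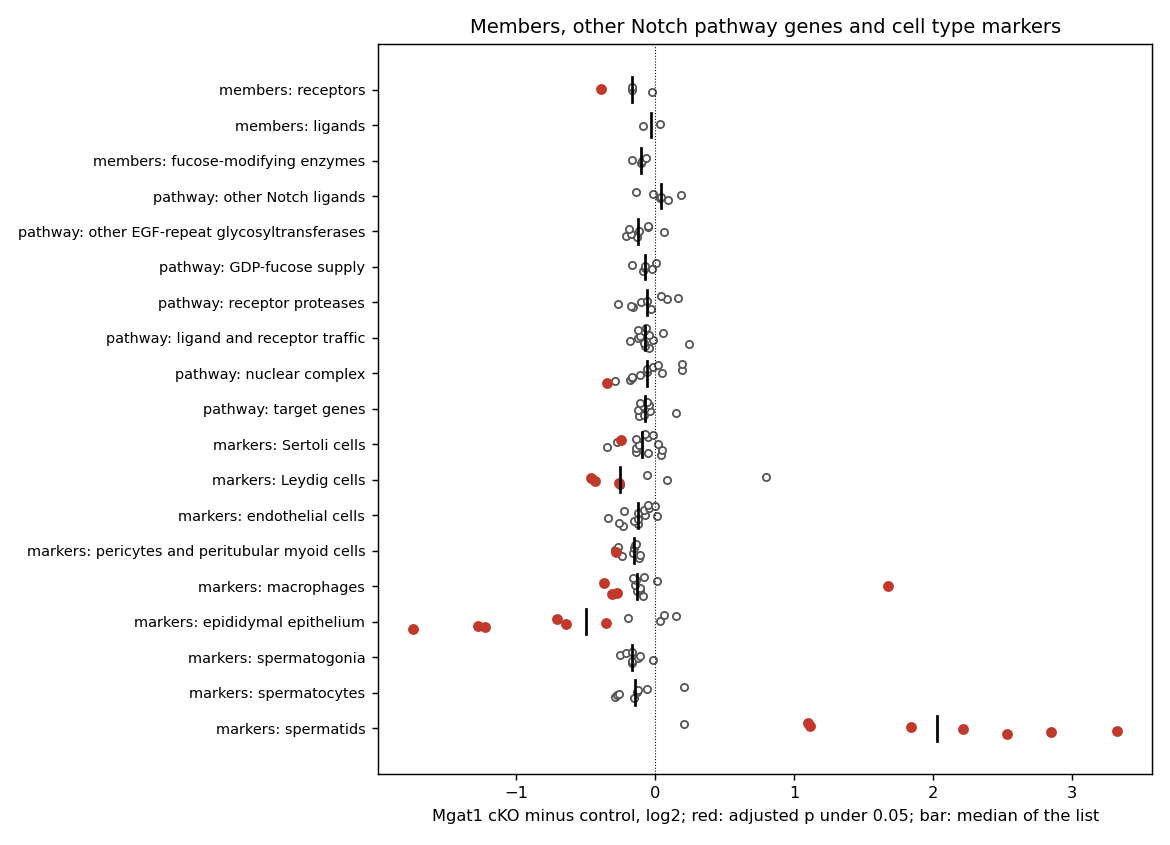
Difference of each gene, Mgat1 cKO minus control on the log2 scale (x axis), by list (y axis), with bars at the list medians and genes with an adjusted p under 0.05 in red. The 10 genes and the 65 other pathway genes lie between -0.39 and 0.25, within a narrower range than the spermatid and epididymal markers.

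Markers of the cell types that the preparations could hold are given beside these results, and in bulk RNA fewer cells of a type and less RNA per cell cannot be told apart. All 10 markers of pericytes and peritubular myoid cells were negative in sign, beside 64.5% of all genes. Among them 1, Myh11, was lower (-0.28, limma adjusted p = 0.026). The mean level of the 10 markers was 7.21 to 7.24 on Mgat1 cKO arrays and 7.41 to 7.43 on control arrays, a difference of the same sign as that of Notch3. Des (-0.29, adjusted p = 0.108) and Abcc9 (-0.27, adjusted p = 0.106) were next. Of the 14 endothelial markers 13 were negative and none passed the test, led by Emcn (-0.34, adjusted p = 0.0683), Kdr (-0.26, adjusted p = 0.143) and Pecam1 (-0.23, adjusted p = 0.119), with a mean level of 5.92 to 6.06 in Mgat1 cKO and 6.09 to 6.15 in control. Negative signs were also common in other lists, with 8 of 8 spermatogonial, 7 of 8 spermatocyte, 11 of 13 macrophage and 11 of 14 Sertoli cell markers. Leydig cell markers had 5 of 7, epididymal markers 7 of 10 and spermatid markers 0 of 8. The part of pericytes, peritubular myoid cells and endothelial cells in the Notch3 result was not tested.

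Of the 8 spermatid markers 7 were higher, led by Tnp2 (3.33), Tnp1 (2.85) and Acrv1 (2.54), and the mean level was 8.63 to 8.65 in Mgat1 cKO and 6.73 to 6.75 in control. Their part in the higher Notch4 probe set was not tested. None of the 8 spermatogonial markers passed the test, led by Sall4 (-0.25, adjusted p = 0.0594), with a mean level of 7.13 on the Mgat1 cKO arrays and 7.24 to 7.31 on the control arrays. None of the 8 spermatocyte markers passed it either, led by Sycp3 (-0.29, adjusted p = 0.114), with a mean level of 9.44 to 9.56 in Mgat1 cKO and 9.61 to 9.72 in control. Leydig cell markers had 3 lower of 7, led by Hsd3b6 (-0.46, limma adjusted p = 0.00408) and Star (-0.43, adjusted p = 0.00865). The largest Leydig difference in size was that of Insl3, which was positive, rested on 1 probe set and did not pass the test (0.80, adjusted p = 0.202). Of 14 Sertoli cell markers 1 was lower, Fshr (-0.25, adjusted p = 0.0411), and of 10 epididymal markers 6, led by Gpx5 (-1.74), Defb47 (-1.28) and Defb20 (-1.22). Of 13 macrophage markers 3 were lower and 1, Aif1, was higher (1.67).

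Mgat1 itself, the targeted gene, had values of 6.35, 6.10 and 6.45 in Mgat1 cKO, against 6.17, 6.44 and 6.33 in control, which overlapped (-0.017, limma adjusted p = 0.939). Of its 12 probe sets 1 passed the test, 17248953, with values of 5.80, 5.33 and 5.75 in Mgat1 cKO, against 6.71, 6.54 and 6.66 in control, lower on every Mgat1 cKO array by -1.01 ± 0.159 (SE, adjusted p = 0.0367). Which probe sets lie in the deleted part is not given in the sources used here, so the gene mean does not check the labels.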

How the data were processed

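Mouse Gene ST arrays were hybridized with 3 aliquots of 1 RNA pool per genotype, each pool from 6 mice. The deposited log2 values came from RMA, run by the authors in Affymetrix Expression Console (version not given in the sources used here), which corrects background, normalizes by quantiles and summarises probes. Values are per exon-level probe set. Of 269751 probe sets, 233753 carried 1 gene symbol by the platform annotation, 5139 several and 30859 none. The level of a gene is the mean of its probe sets that carry its symbol alone.

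Genes and probe sets were tested with limma 3.58.1 (lmFit, eBayes without trend) in R 4.3.3, and p-values were adjusted by Benjamini-Hochberg across every gene or every probe set. The scripts were tested on simulated data. The number of arrays limits the precision, and 3 against 3 could not go below p = 0.10 in an exact permutation test, so none was used. The 10 genes and the pathway and marker lists were chosen with earlier results of these data known. Named were the 10 genes, Mgat1, the called or up to 2 most changed genes of each pathway list, up to 3 of each marker list, and called probe sets. Of the 67 pathway genes, 65 were measured, 5 under an older symbol, and 92 of 93 markers. Alternatives were the analysis of variance, an intensity trend, a replicate block, differences of medians, dim probe sets left out, array centring, repeated quantile normalization, the median of probe sets, a 2-fold threshold, and each array left out. Arrays at 22 dpp were not analysed here. Figures were drawn with matplotlib 3.10.9.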

Additional observations from a re-analysis of the deposited data

How the results depend on the processing

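The difference of Notch3 stayed negative in all 15 alternatives, from -0.55 to -0.33, and missed the threshold in 8. It was -0.39 by the analysis of variance run here (adjusted p = 0.0817) and with a replicate block (adjusted p = 0.0678). The difference was -0.36 without dim probe sets, -0.55 with the median of probe sets, and -0.45 to -0.33 with single arrays left out. Among 118 tested values of the 9 other genes, 2 passed, both of Notch4: -0.16 by the analysis of variance (adjusted p = 0.011) and -0.24 without its probe set with the largest rise, which makes the mean more negative by construction and is no support for a fall. That fit was chosen after seeing the data, as were the fit of Notch3 without 1 probe set and the test with the spread of each departure. The sign turned with the median of probe sets for Notch1 (0.031), Notch4 (0.0099), Rfng (0.13) and Mgat1 (0.12), without Mgat1 cKO replicate 2 for Notch1 (0.0099) and Mgat1 (0.082), without control replicate 1 for Notch1 (0.0035), without control replicate 2 for Mgat1 (0.047) and without Mgat1 cKO replicate 3 for Rfng (0.023). With single arrays left out, Notch1 ranged from -0.051 to 0.0099, Rfng from -0.14 to 0.023 and Mgat1 from -0.091 to 0.082. The cause was not tested.

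The count of the 10 genes that were lower, 1 as reported, was 0 with the replicate block, without dim probe sets, with the median of probe sets and at the 2-fold threshold, and 0 to 1 with single arrays left out. For other pathway genes it was 2 with an intensity trend, 0 with the replicate block, without dim probe sets, with quantile normalization repeated, with the median of probe sets and at 2-fold, and 0 to 2 with single arrays left out. Rbpj missed the threshold in 10 of 14 alternatives, among them the replicate block (adjusted p = 0.0807), and stayed negative in all. Of the called member probe sets, the lower count was 0 with the replicate block (adjusted p = 0.0608 for probe set 17343302) and 1 to 2 with single arrays left out. The higher count was 0 by the analysis of variance and with the replicate block (adjusted p = 0.103 for 17336593). With single arrays left out the higher count was 0 to 1. Probe sets that departed from their gene were 2 by diffSplice and 1 with the spread of each departure. Lower markers, 14 as reported, were 25 with an intensity trend, 7 with the replicate block, 6 with the median of probe sets, 3 at 2-fold and 7 to 10 with single arrays left out. Over all genes the 543 lower were 1385 with an intensity trend, 208 with the replicate block, 135 with the median of probe sets, 8 at 2-fold and 181 to 324 with single arrays left out, and the 1405 higher were 586 at 2-fold. The replicate numbers do not pair the arrays: deviations of same-numbered arrays correlated at -0.02, -0.06 and -0.02, and 0 arrays correlated best with their own number.

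Signal limits Notch3, Lfng and Mfng, whose means lay within the range of olfactory receptor probe sets, and likewise the listed targets other than Hey1, Heyl and Nrarp. Aliquots of 1 pool per genotype leave the variation between mice unmeasured.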
